A study of Mus musculus with 6 samples.

Results

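The endoplasmic reticulum (ER) folding genes described here are 40 listed genes for ER chaperones, disulfide isomerases, translocation, ER-associated degradation (ERAD) and the sensors of the unfolded protein response (UPR), of 19938 genes measured. They were chosen by name from the function of their proteins, with earlier results of these data known. Each gene is represented by the probe set of highest mean level among those annotated to exactly 1 gene symbol, and all 40 were found, with Ero1l under its current symbol Ero1a. RNA came from isolated epithelial cells of the small intestine of mouse embryos at E18.5, shortly before birth, and was measured on 6 whole-transcript arrays. The 3 arrays labelled Gata4Gata6 cKO (cKO 1 to 3) held RNA of mice with a double conditional knockout of Gata4 and Gata6, which encode GATA-type DNA-binding factors of the developing gut, and 3 arrays (control 1 to 3) held control RNA. The cre driver, the control genotype and the strain are not analysed here, as the labels do not name them. Nor do the labels tie each array to its own animal, so the p-values reflect how far these arrays lie apart, part of which may be technical.

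The ER receives newly made secreted and membrane proteins through the Sec61 channel, folds them with chaperones and disulfide isomerases, sends folded cargo to the Golgi in COPII-coated vesicles and returns misfolded proteins to the cytosol for degradation. The UPR is the set of pathways that IRE1, PERK and ATF6 start from the ER membrane when unfolded proteins build up, and it raises transcription of chaperone and ERAD genes. In the intestine these genes serve goblet cells, which fold large amounts of mucin, and enterocytes, which load chylomicrons in the ER.

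Levels are the deposited log2 values. A change is the mean on the arrays labelled cKO minus the mean on the control arrays, printed with its SE from 3 against 3 arrays. An adjusted p is limma's after Benjamini-Hochberg adjustment over 19938 genes, and a gene is said to have risen or fallen where it is under 0.05.

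Some facts of the whole series bear on these genes. The array medians lay between 7.73 and 7.84. Neither targeted gene was reduced where the label says knockout: Gata4 stood at 11.34, 11.39 and 11.51 on the arrays labelled cKO, against 10.95, 10.93 and 10.96 on the controls, and Gata6 at 12.72, 12.69 and 12.72, against 12.23, 12.28 and 12.27 on the controls. Probes of a set lie along the whole gene and the labels do not name the deleted exons, so this does not check the deletion, and every direction rests on the labels. The 12 epithelial markers averaged 11.86 to 12.08 on the arrays labelled cKO and 12.06 to 12.07 on the controls, but single markers differed. Fabp2, a fatty acid binding protein of enterocytes named after its values were seen, stood at 10.64, 9.90 and 11.02 on the arrays labelled cKO, against 13.18, 13.28 and 13.29 on the controls (change -2.73 ± 0.27, adjusted p = 0.00163). Of the other 11 epithelial markers 3 rose (Krt19 by 0.61, Epcam by 0.32 and Krt8 by 0.32), and the calls of Epcam and Krt8 failed on leaving out any of 5 arrays, all but cKO 2. On cKO 2 the 11 measured hepatocyte markers averaged 12.93, where cKO 1 and cKO 3 had 8.91 and 9.01, and on controls 1 to 3 the averages were 9.95, 8.41 and 11.30. Of all 6 arrays cKO 2 was also highest for the lists of erythroid cells (10.55), leukocytes (9.09) and endothelium (8.47). A male pattern was present on control 3 alone, where Xist stood at 6.18, against 11.74 to 12.42 on the other 5 arrays.

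On the arrays labelled cKO, 3 of the 40 genes rose and 4 fell. Pdia5 and Agr2, of the disulfide isomerase family, and Ern2, the gut epithelial form of the UPR sensor IRE1, rose. Sec24d, a cargo adaptor of the COPII coat, Ddit3, the stress transcription factor CHOP, Dnajb9, a co-chaperone, and P4hb, protein disulfide isomerase itself, fell. The shares were 7.5% higher and 10% lower, near the background of 5.52% higher and 7.42% lower among all genes. Groups did not overlap for 6 genes that were above the controls and 8 that were below, out of 40, where 14.3% and 18.3% of all genes were above and below. The median change of the 40 was -0.0033, against -0.013 over all genes, and 20 of the 40 changes were above 0.

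**Figure D1:**
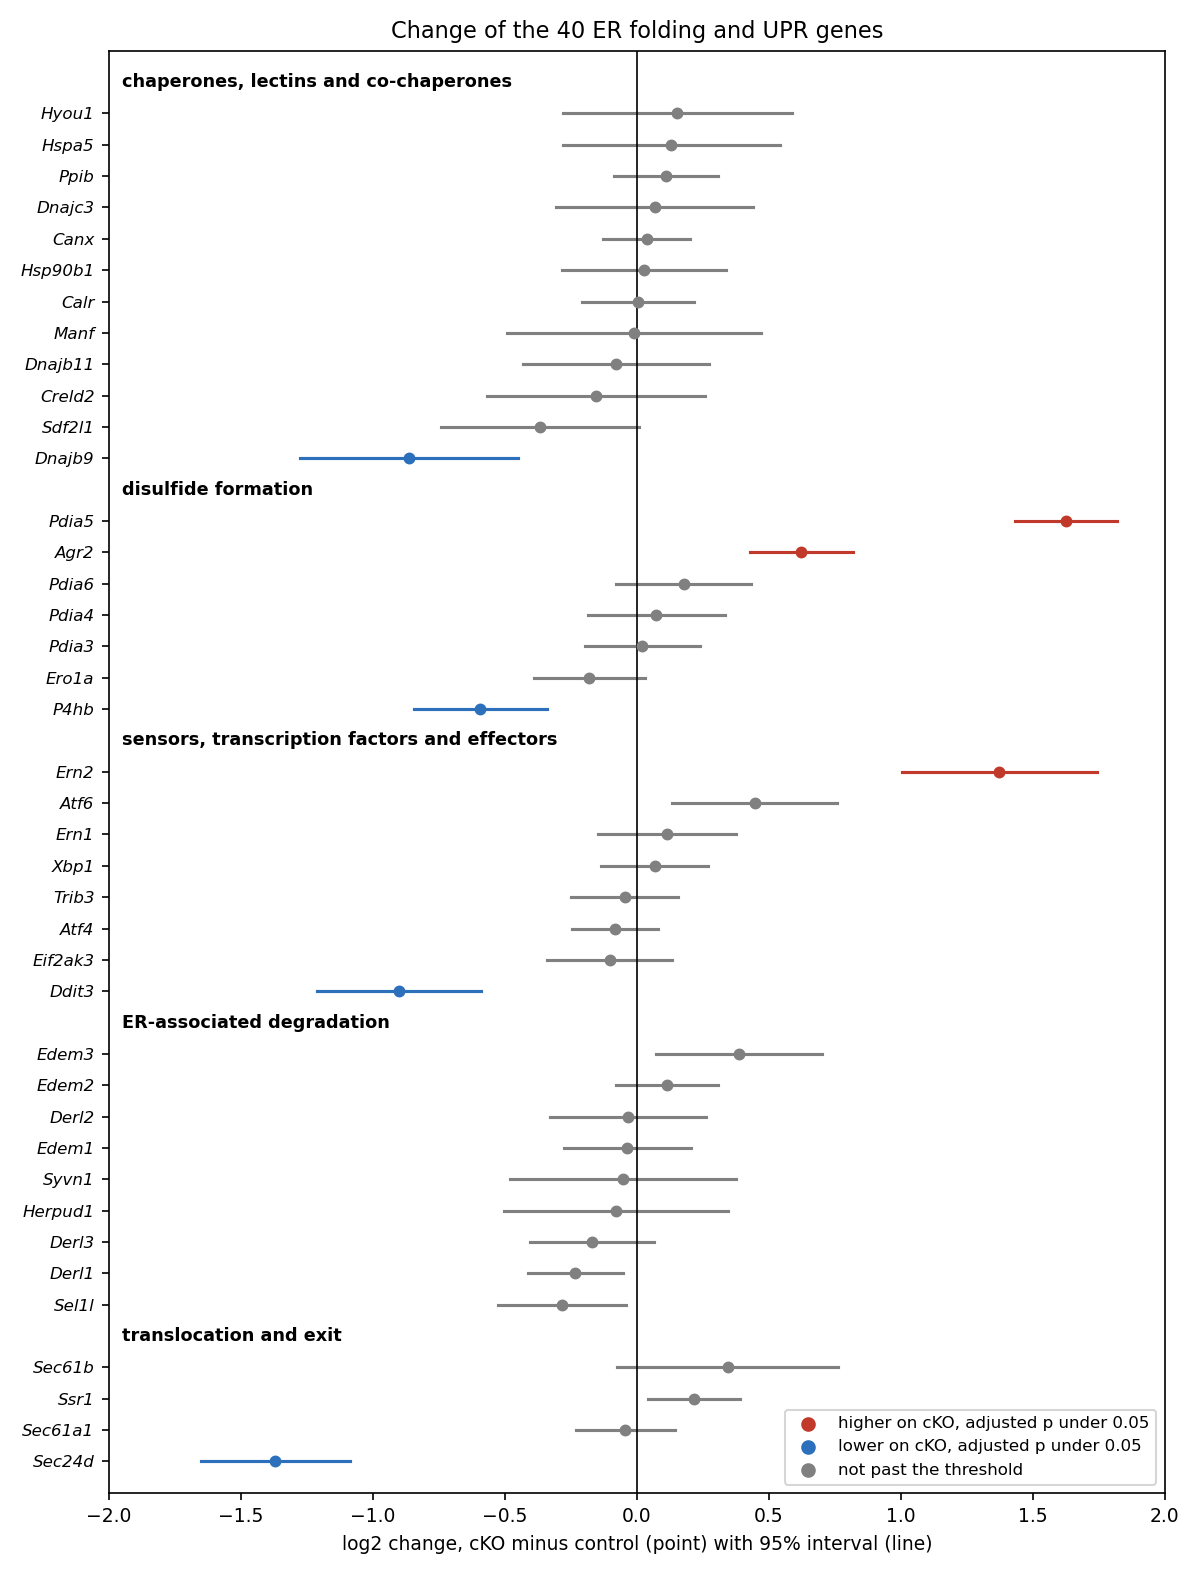
Log2 change of each of the 40 genes on the arrays labelled cKO relative to the control arrays (x axis, points) with its 95% interval (lines), grouped by role, with 3 arrays per group. Both rises (red) and falls (blue) occur among the disulfide genes and among the sensors, and most chaperone and ERAD genes (grey) have intervals that span 0.

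Among the chaperones, lectins and co-chaperones, 1 of 12 genes fell and 0 rose by limma, and 0 rises had an unadjusted p under 0.05. Their median change was 0.015. Hspa5, which encodes BiP, the ATP-driven chaperone that also holds the UPR sensors inactive, stood at 12.15, 12.56 and 12.41 on the arrays labelled cKO and at 12.00, 12.18 and 12.55 on the controls. The groups overlapped, and the change was 0.13 ± 0.17 (adjusted p = 0.694, 95% interval -0.28 to 0.54). Hsp90b1, the ER form of HSP90, stood at 11.91, 12.23 and 12.07 on the arrays labelled cKO and at 11.88, 12.00 and 12.25 on the controls, again with overlap (95% interval -0.28 to 0.34). Calr and Canx, the lectin chaperones calreticulin and calnexin that bind glycoproteins, changed by 0.0033 ± 0.089 and 0.037 ± 0.069, with 95% intervals of -0.21 to 0.22 and -0.13 to 0.20. For these 4 genes the intervals leave out changes as large as those of the 7 genes that rose or fell.

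The other chaperone genes had overlapping groups with 1 exception besides Dnajb9. Hyou1, a large relative of HSP70 that exchanges nucleotide on BiP, changed by 0.15 ± 0.18, and Dnajb11 and Dnajc3, co-chaperones of BiP, by -0.080 ± 0.15 and 0.067 ± 0.15. Manf, a small secreted ER stress protein, changed by -0.010 ± 0.20, Creld2, another ER stress-induced protein, by -0.15 ± 0.17, and Ppib, the proline isomerase cyclophilin B, by 0.11 ± 0.082. The adjusted p of these 6 genes ran from 0.458 (Ppib) to 0.985 (Manf). Sdf2l1, a partner of BiP complexes, stood at 10.52, 10.77 and 10.61 on the arrays labelled cKO and at 10.80, 10.87 and 11.33 on the controls. Its groups did not overlap, but the change of -0.37 ± 0.16 did not pass (adjusted p = 0.198).

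Dnajb9, known as ERdj4, is a BiP co-chaperone that represses IRE1 and assists ERAD. It stood at 9.88, 10.29 and 9.86 on the arrays labelled cKO, against 10.82, 10.65 and 11.15 on the controls. All 3 arrays labelled cKO were below every control array, and the change was -0.86 ± 0.17 (1.82-fold lower, adjusted p = 0.0223). The adjusted p was 0.0634 to 0.0766 without cKO 1, cKO 3, control 1 or control 3, and 0.0107 without cKO 2.

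The disulfide genes split. Of 7 genes 2 rose and 1 fell. Pdia5, a member of the protein disulfide isomerase family, stood at 10.53, 10.55 and 10.53 on the arrays labelled cKO and at 8.79, 8.94 and 9.0 on the controls. The groups were far apart relative to their spread, and the change of 1.63 ± 0.080 (3.09-fold higher, adjusted p = 0.000197) was the largest rise of the 40 genes and held in all 17 alternatives. Agr2, a disulfide isomerase needed for mucin production in mouse goblet cells, stood at 13.05, 12.99 and 13.07 on the arrays labelled cKO, against 12.44, 12.50 and 12.30 on the controls. Every array labelled cKO was above every control, and the change was 0.62 ± 0.081 (1.54-fold higher, adjusted p = 0.00452).

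P4hb, the abundant isomerase that is also a subunit of prolyl 4-hydroxylase and of the microsomal triglyceride transfer protein, went the other way. It stood at 12.25, 12.39 and 12.15 on the arrays labelled cKO, against 12.72, 12.85 and 13.00 on the controls. The groups did not overlap, and the change was -0.59 ± 0.11 (1.51-fold lower, adjusted p = 0.0144). Without cKO 3, control 2 or control 3 the adjusted p was 0.0508 to 0.0581, and 2 of the 40 genes fell without cKO 3 or control 3. Pdia3, the isomerase that works with calnexin, Pdia4 and Pdia6 changed by 0.020 ± 0.090, 0.073 ± 0.11 and 0.18 ± 0.11 and did not pass. Ero1a, the oxidase that recharges disulfide isomerases, stood at 11.00, 11.01 and 11.10 on the arrays labelled cKO and at 11.23, 11.09 and 11.33 on the controls, with a touch of overlap and a change of -0.18 ± 0.087 (adjusted p = 0.255).

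**Figure D2:**
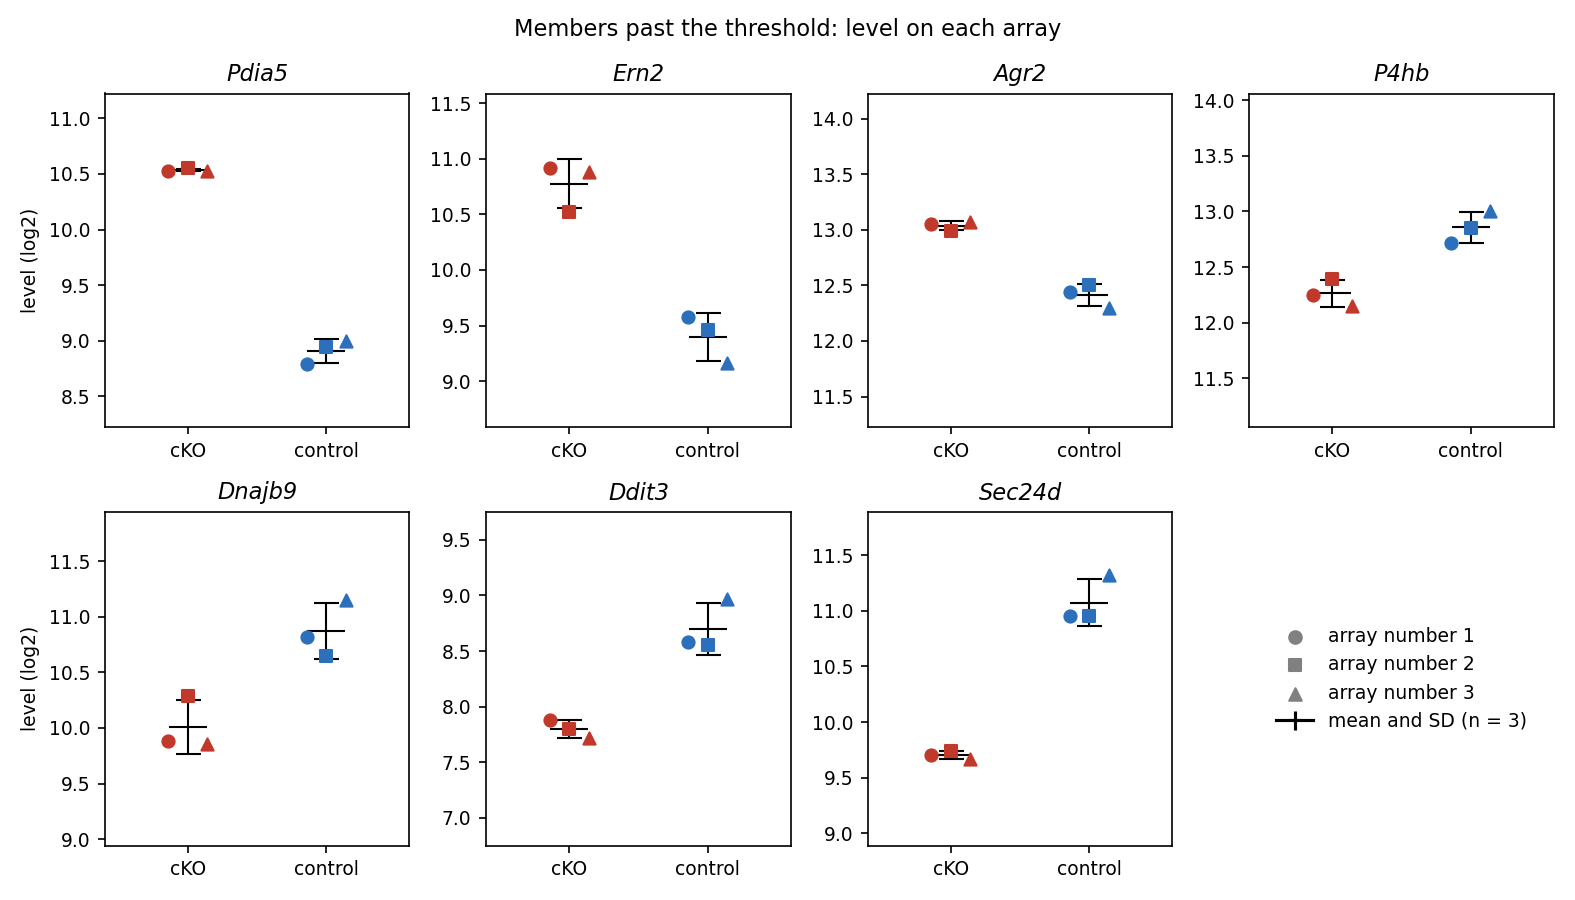
Log2 level (y axis) of the 7 genes past the threshold on each array, with arrays labelled cKO left and control arrays right in each panel. Marker shapes give the array number, bars the mean and SD of 3 arrays, and each y axis spans the same number of log2 units. In all 7 panels no array labelled cKO reaches the range of the controls.

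Among the sensors and transcription factors, 1 of 8 rose and 1 fell. Ern2 encodes IRE1β, a form of the sensor found in gut and airway epithelium, where it is known from goblet cells. It stood at 10.92, 10.52 and 10.88 on the arrays labelled cKO, against 9.58, 9.46 and 9.16 on the controls. The groups did not overlap, and the change was 1.37 ± 0.15 (2.59-fold higher, adjusted p = 0.00274). Its ubiquitous relative Ern1, IRE1α, stood at 9.24, 9.49 and 9.11 on the arrays labelled cKO, against 9.18, 9.13 and 9.19 on the controls, with overlapping groups and a change of 0.11 ± 0.11 (adjusted p = 0.573). The difference between the changes of the 2 genes was not tested.

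Ddit3 encodes CHOP, the transcription factor that the PERK branch induces in prolonged stress. It stood at 7.88, 7.80 and 7.72 on the arrays labelled cKO, against 8.58, 8.55 and 8.97 on the controls. The groups did not overlap, and the change was -0.90 ± 0.13 (1.87-fold lower, adjusted p = 0.00667). Ern2 and Ddit3 passed in all 17 alternatives. Eif2ak3, which encodes PERK, Atf4, the factor translated when PERK is active, and Trib3, a target of ATF4 and CHOP, changed by -0.10 ± 0.099, -0.083 ± 0.068 and -0.047 ± 0.084 and did not pass (adjusted p of 0.571, 0.50 and 0.779). Levels of Atf4 were 10.20 to 10.24 on the arrays labelled cKO and 10.25 to 10.35 on the controls, without overlap. Transcript levels do not show the translation of Atf4. Trib3 had the lowest mean level of the 40 genes, at 7.46 to 7.68 over the 6 arrays. That is under the array medians of 7.73 to 7.84, and a low level can hide a larger change.

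Atf6, the sensor that is cut in the Golgi to release a transcription factor, stood at 9.75, 9.95 and 9.61 on the arrays labelled cKO, against 9.35, 9.13 and 9.49 on the controls. The groups did not overlap, yet the change of 0.45 ± 0.13 did not pass (adjusted p = 0.0769). It passed in 4 of the 17 alternatives, at an adjusted p of 0.0316 with the hepatocyte marker level as a covariate and of 0.0455 to 0.0497 in the other 3. Xbp1, the factor whose mRNA IRE1 splices, stood at 11.74, 11.98 and 11.87 on the arrays labelled cKO and at 11.79, 11.77 and 11.83 on the controls. These groups overlapped (change 0.067 ± 0.085, adjusted p = 0.680), and a probe set that sums a whole gene does not separate the spliced from the unspliced form.

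Goblet cell markers moved with Agr2 and Ern2. Of 11 measured goblet cell markers, which do not include any of the 40 genes, 8 rose and 1 fell, and their mean level was 10.85 to 11.47 on the arrays labelled cKO, against 10.37 to 10.71 on the controls, with no marker at 0. Of these, named after their values were seen, Muc2, the main gut mucin, changed by 1.25 ± 0.15 and Spdef, a goblet cell transcription factor, by 1.36 ± 0.14, while Zg16, a granule lectin, changed by -2.26 ± 0.21. Retnlb, also named after its values were seen, stood at 12.40 on cKO 3 and 10.87 on control 3. On the other arrays it lay at 5.57 to 7.82, so it raised the list mean on cKO 3 and control 3. The goblet count was 7 with control 3 and cKO 2 both left out. The part of goblet cell number in the changes of Agr2, Ern2 and Pdia5 was not tested. In bulk RNA a change in the number of cells of a type and a change in RNA per cell cannot be told apart.

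No ERAD gene passed. Of 9 genes 0 rose and 0 fell by limma, with 1 rise and 2 falls at an unadjusted p under 0.05. Herpud1, a stress-induced scaffold of the retrotranslocation complex, stood at 11.13, 11.64 and 11.15 on the arrays labelled cKO and at 11.17, 11.38 and 11.61 on the controls, with wide overlap (95% interval -0.51 to 0.35). Syvn1, the ubiquitin ligase HRD1, changed by -0.053 ± 0.18 and its partner Sel1l by -0.28 ± 0.10 (adjusted p of 0.887 and 0.131), and all 3 arrays labelled cKO were below the controls for Sel1l. Derl1, a channel component, was likewise below the controls on every array labelled cKO, at 11.07, 11.13 and 10.98 against 11.26, 11.27 and 11.35 (change -0.23 ± 0.075, adjusted p = 0.102). Its relatives Derl2 and Derl3 overlapped between groups, with changes of -0.033 ± 0.12 and -0.17 ± 0.098.

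The EDEM genes encode proteins that mark misfolded glycoproteins for ERAD by mannose trimming. Edem3 stood at 9.95 to 10 on the arrays labelled cKO, against 9.54, 9.37 and 9.86 on the controls. The groups did not overlap, but the change of 0.39 ± 0.13 did not pass (adjusted p = 0.114), except without control 3, the highest control (0.52, adjusted p = 0.0310). Edem1 and Edem2 changed by -0.037 ± 0.10 and 0.11 ± 0.080, with overlapping groups.

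Of the translocation and exit genes, 1 of 4 fell and 0 rose by limma, with 1 rise at an unadjusted p under 0.05. Sec24d, which picks cargo for COPII vesicles, stood at 9.70, 9.74 and 9.67 on the arrays labelled cKO, against 10.95, 10.95 and 11.32 on the controls. The gap between the groups was many times the spread on the arrays labelled cKO, and the change was -1.37 ± 0.12 (2.58-fold lower, adjusted p = 0.00100), a call held in all 17 alternatives. Sec61a1, the pore of the translocon, stood at 12.25, 12.42 and 12.29 on the arrays labelled cKO and at 12.35, 12.32 and 12.42 on the controls, a change of -0.043 ± 0.078. Ssr1, of the translocon-associated complex, stood at 11.48, 11.51 and 11.38 on the arrays labelled cKO, against 11.21, 11.29 and 11.22 on the controls. That gene did not overlap between groups and did not pass (0.22 ± 0.073, adjusted p = 0.115). Sec61b, the beta subunit of the channel, has 3 probe sets whose changes were 0.34, 0.66 and 0.77, and none passed (adjusted p of 0.274, 0.121 and 0.102).

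Genes of the same pathway outside the 40 were examined from lists drawn up by function, with earlier results of these data known. The shares of these lists are therefore descriptive and do not test the pathway. Of 136 measured genes, 16 rose and 15 fell (11.8% and 11%), against 5.52% and 7.42% of all genes. In the fit without the lowest tertile of levels, 9.43% of all genes rose and 12.2% fell, and 20 genes of the lists rose and 15 fell. The number of falls was 8 without cKO 1 or control 3, 7 without cKO 3 and 9 without control 1 or control 2, and the number of rises was 10 without control 2. ER exit and retrieval held most of the falls, with 9 of 27 genes lower and 2 higher and a median change of -0.18. The genes lower with the smallest adjusted p were Tfg, which organises COPII at ER exit sites (-0.78 ± 0.067, adjusted p = 0.00100), Sec16b, an exit site scaffold (-1.38 ± 0.12, adjusted p = 0.00107), and Sec23a, the partner of SEC24 in the inner coat (-0.90 ± 0.11, adjusted p = 0.00361). Sec23a stood at 10.96, 11.01 and 10.85 on the arrays labelled cKO, against 11.67, 11.82 and 12.02 on the controls. For Sec16b the levels were 9.40, 9.51 and 9.14 on the arrays labelled cKO, against 10.60, 10.74 and 10.84 on the controls. Neither gene overlapped between the groups.

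The other 6 falls among the exit genes are named after their values were seen. They were Mia2, a cargo receptor partner at exit sites (-0.71), Sec13, of the outer coat (-0.68), Sar1b, the GTPase that starts the coat and is needed for chylomicron export (-0.57), Sec24a (-0.48), the cargo receptor gene Surf4 (-0.45) and Sec31a, of the outer coat (-0.39). Relatives of several fallen genes, also named after their values were seen, did not pass: Sec23b changed by -0.083 ± 0.083, Sec24b by 0.040 ± 0.089, Sec24c by -0.17 ± 0.082, Sec16a by 0.15 ± 0.10 and Sar1a by 0.32 ± 0.17. Whether these relatives differ from the genes that fell was not tested. The enterocyte marker Fabp2 fell as well. Of the 12 epithelial markers, a list not made for enterocytes alone, 1 fell, 3 rose and 8 did not pass. The part of enterocyte number or state in the falls of the exit genes was not tested. The 2 rises were Kdelr3, a receptor that returns ER residents (0.91 ± 0.19, adjusted p = 0.0251), and Mia3, TANGO1, which exports bulky cargo such as collagen (0.37 ± 0.064, adjusted p = 0.0131). Calls of Sec24a, Sec31a, Surf4, Kdelr3 and Mia3 were each lost without cKO 3 and without 1 to 3 of the other arrays (adjusted p up to 0.0849), and the count of falls was 6 without cKO 1 or cKO 3. With control 3 and cKO 2 both left out it was 5, all of them among the 9.

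**Figure D3:**
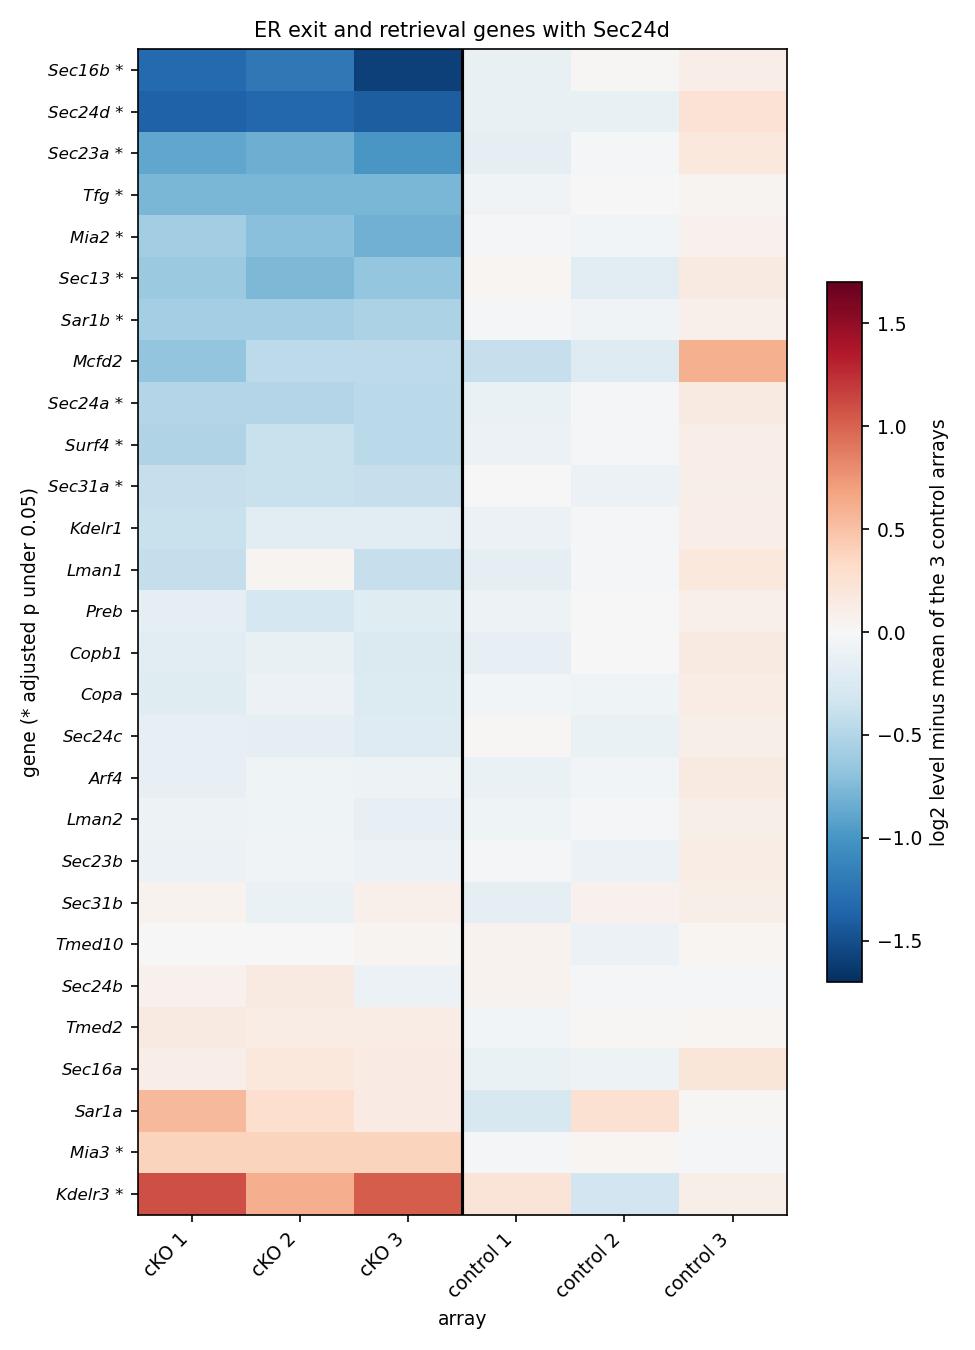
Log2 level of the 27 measured ER exit and retrieval genes and Sec24d (rows) on each array (columns, arrays labelled cKO left), minus the mean of the 3 control arrays. Blue is lower and red higher than that mean, and asterisks mark an adjusted p under 0.05. Sec16b and Sec24d are darkest blue on all 3 arrays labelled cKO, and Kdelr3 is red on all 3.

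Of 24 measured sensors, transcription factors and effectors outside the 40, 7 rose and 3 fell (29.2% and 12.5%, against 5.52% and 7.42% of all genes). Creb3l1, a factor released from the ER by the same proteases as ATF6, rose by 1.76 ± 0.18 (adjusted p = 0.00186), and its relative Creb3l4 by 1.25 ± 0.16 (adjusted p = 0.00418). Of the other membrane-bound factors on the list, named after their values were seen, Atf6b, a relative of ATF6, rose by 0.39 ± 0.074 (adjusted p = 0.0191). That call held on leaving out cKO 2 and failed for each of the other 5 arrays. Creb3 stayed short of the threshold, at -0.32 ± 0.12 (adjusted p = 0.158). Eif2ak4, the amino acid sensor kinase GCN2 that shares its target with PERK, rose by 0.78 ± 0.11. Creb3l3, the family member of enterocytes and hepatocytes, stood at 9.09, 9.36 and 8.85 on the arrays labelled cKO, against 11.76, 11.70 and 11.85 on the controls. That was a change of -2.67 ± 0.14 (adjusted p = 0.000206), and Creb3l2, which induces COPII genes in mouse cartilage, changed by -1.0 ± 0.20 (adjusted p = 0.0224). The call of Creb3l2 was lost without cKO 1, cKO 3, control 1 or control 3 (adjusted p up to 0.0779). The last of the 3 falls was Sesn2, a stress-induced regulator of growth signalling (-0.45 ± 0.11, adjusted p = 0.0428), which did not pass with any 1 array left out.

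The remaining lists differed from one another. In disulfide formation 3 of 14 genes rose and 2 fell (21.4% and 14.3%, against 5.52% and 7.42% of all genes). In the lists of chaperones, translocation and ERAD, 0% to 10% of genes rose and 0% to 4.35% fell. Txndc5 rose by 0.82 ± 0.095, P4ha1, the catalytic subunit that pairs with P4HB in collagen prolyl hydroxylation, by 1.37 ± 0.18, and Qsox1, a secreted sulfhydryl oxidase, by 1.57 ± 0.25. Ero1b and Agr3 changed by -0.67 ± 0.16 each, with calls lost on leaving out any of 5 arrays. Agr3 was low, at 5.12 to 5.66 on the arrays labelled cKO and 5.91 to 6.29 on the controls, within the lowest tertile of levels. Of 20 chaperone and lectin genes 2 rose, Fkbp9, a proline isomerase (1.02 ± 0.10), and Dnajc10, a disulfide reductase of ERAD (0.84 ± 0.090), and 0 fell by limma, also at an unadjusted p under 0.05. Of 28 translocation and glycosylation genes 2 rose, the signal peptidase genes Sec11c (0.97 ± 0.085) and Spcs3 (0.46 ± 0.099, lost without cKO 2, cKO 3, control 1 or control 2), and 0 fell by limma, with 2 lower at an unadjusted p under 0.05. In ERAD 1 of 23 genes fell, Bcap31, an ER membrane escort (-0.35 ± 0.071), a call lost with any 1 array left out, and 0 rose by limma, with 4 higher at an unadjusted p under 0.05.

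The chaperone and ERAD genes varied among the arrays of a group. For 24 of the 40 genes (60%) the range over the 3 controls was wider than the change between groups, ties not counted. The share was 61.2% of all genes, but 43.7% of genes with a mean level of at least 10. The control range was wider than the change for most chaperone genes. Their count was 10 of 12. Hspa5 spanned 0.41 over the arrays labelled cKO and 0.55 over the controls, and Hyou1 spanned 0.36 over the arrays labelled cKO and 0.63 over the controls. The high arrays were the same from gene to gene. cKO 2 was the highest of its group for 31 of the 40 genes (77.5%), against 34.8% of all genes, and control 3 for 34 (85.0%), against 36.2%. Both held for 29 of the 40 (72.5%), for 11 of the 12 chaperone genes and for 13.1% of all genes. Members of 1 pathway are not independent, and no test was made of these shares.

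The genes did not all share this pattern. Herpud1 on cKO 2 lay 0.50 above the mean of cKO 1 and cKO 3, and on control 3 it lay 0.34 above the mean of controls 1 and 2. For Hspa5 these gaps were 0.28 and 0.46, and for Manf 0.34 and 0.52. Ern2 lay the other way, 0.38 below on cKO 2 and 0.36 below on control 3, as did Agr2, by 0.070 and 0.17. Of the marker lists of other cell types, 3 were highest of their group on both cKO 2 and control 3. They were those of hepatocytes (12.93 on cKO 2 and 11.30 on control 3), erythroid cells (10.55 and 8.66) and endothelium (8.47 and 8.0). The erythroid mean on control 1 was 8.55, close to that on control 3. The lowest array of a group for most of the 40 genes was cKO 1 (24 genes) and control 1 (23 genes), while hepatocyte markers were lowest on cKO 1 (8.91) and control 2 (8.41). Acinar markers, from another secretory cell, averaged 9.96, 9.77 and 8.85 on cKO 1 to 3 and 10.22, 8.56 and 7.33 on controls 1 to 3, so that control 3 was lowest. The part of other cells, of sex and of RNA handling in these gaps was not tested.

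The pattern was set beside the promoters. RefSeq promoter sequences of GRCm38.p6, covering 250 bases before to 50 bases after a start site, were at hand for 34 of the 40 genes. They were searched on both strands for the ER stress element ERSE (CCAAT, any 9 bases, then CCACG) and ERSE-II (ATTGG, any 1 base, then CCACG), both bound by ATF6 in the UPR. A core bound by XBP1 and ATF6 (TGACGTGG) and the amino acid response element bound by ATF4 (ATTGCATCA) were searched likewise. ERSE was present in 9 of the 34 genes (26.5%), namely Calr, Canx, Creld2, Derl3, Dnajc3, Hsp90b1, Hspa5, Pdia6 and Syvn1. It was present in 0.137% of all 27025 genes with a promoter sequence. ERSE-II was present in Dnajb11 and Herpud1 (5.88%, against 0.0444% of all genes), the core TGACGTGG in Sec24d (2.94%, against 0.714%) and ATTGCATCA in 0 of the 34 (against 0.222%). The 40 genes were chosen for their part in the ER and the UPR, in which ERSE and ERSE-II act. Shares of these 2 elements therefore describe how the list was chosen and are not a result of these arrays. A match is a run of letters and does not show binding.

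The 5 promoters below show the elements, in capitals, in their surroundings: Hspa5, Hsp90b1 and Pdia6 for ERSE, Herpud1 for ERSE-II, and Sec24d as the 1 fallen gene with any of the motifs. Positions count from the start site, with -1 as the base before it. The ERSE of Hspa5 (chr2:34771840-34772139, plus strand) lies at -65 to -47, and that of Pdia6 (chr12:17266339-17266638, plus strand) at -98 to -80. Hsp90b1 (chr10:86705395-86705694, minus strand) has 1 at -212 to -194 and a reversed one at -107 to -89. In Herpud1 (chr8:94386179-94386478, plus strand) ERSE-II lies at -52 to -42, and in Sec24d (chr3:123267246-123267545, plus strand) the core lies at -26 to -19.
Hspa5: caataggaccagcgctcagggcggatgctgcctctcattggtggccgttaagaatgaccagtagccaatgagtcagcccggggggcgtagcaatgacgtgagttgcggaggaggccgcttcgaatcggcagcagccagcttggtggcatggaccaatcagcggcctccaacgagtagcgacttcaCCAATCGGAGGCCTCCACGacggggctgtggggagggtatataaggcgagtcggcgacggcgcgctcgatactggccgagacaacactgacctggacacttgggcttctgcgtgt
Hsp90b1: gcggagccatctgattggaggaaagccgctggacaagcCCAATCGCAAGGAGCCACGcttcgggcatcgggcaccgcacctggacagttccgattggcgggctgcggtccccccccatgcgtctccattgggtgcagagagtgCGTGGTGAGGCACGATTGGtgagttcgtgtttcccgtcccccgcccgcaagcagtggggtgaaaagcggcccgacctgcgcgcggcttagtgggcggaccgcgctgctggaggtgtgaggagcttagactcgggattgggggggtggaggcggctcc
Pdia6: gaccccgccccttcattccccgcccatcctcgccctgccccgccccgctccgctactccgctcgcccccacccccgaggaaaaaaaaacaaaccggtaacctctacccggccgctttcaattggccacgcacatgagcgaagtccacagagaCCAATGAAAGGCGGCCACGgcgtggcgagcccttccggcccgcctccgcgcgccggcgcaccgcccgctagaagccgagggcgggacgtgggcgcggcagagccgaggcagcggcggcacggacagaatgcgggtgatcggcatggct
Herpud1: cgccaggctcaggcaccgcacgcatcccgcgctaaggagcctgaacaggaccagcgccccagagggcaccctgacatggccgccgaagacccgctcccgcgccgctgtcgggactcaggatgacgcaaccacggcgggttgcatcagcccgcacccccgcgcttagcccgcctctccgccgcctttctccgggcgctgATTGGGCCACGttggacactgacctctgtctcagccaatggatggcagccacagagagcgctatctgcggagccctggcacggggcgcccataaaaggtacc
Sec24d: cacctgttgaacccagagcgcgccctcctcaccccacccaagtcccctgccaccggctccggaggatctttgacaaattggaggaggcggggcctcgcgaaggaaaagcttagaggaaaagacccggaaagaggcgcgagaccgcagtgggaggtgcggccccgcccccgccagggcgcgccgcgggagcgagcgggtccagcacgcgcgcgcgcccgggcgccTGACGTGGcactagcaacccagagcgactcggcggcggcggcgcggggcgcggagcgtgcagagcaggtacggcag

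All 11 genes with ERSE or ERSE-II were highest on both cKO 2 and control 3 within their groups, and 0 of the 11 rose or fell between the groups by limma, nor did any have an unadjusted p under 0.05. Of the 23 other genes with a promoter sequence, 13 were highest on both arrays, 2 rose and 4 fell. Over all genes 5.52% rose and 7.42% fell, so a count of 0 among 11 is near that share. Among genes outside the 40, both arrays were highest for 7 of 19 with ERSE or ERSE-II (36.8%) and for 13.1% of 15561 with neither. This comparison was made after the levels had been seen. It describes which arrays were high and does not test the groups.

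**Figure D4:**
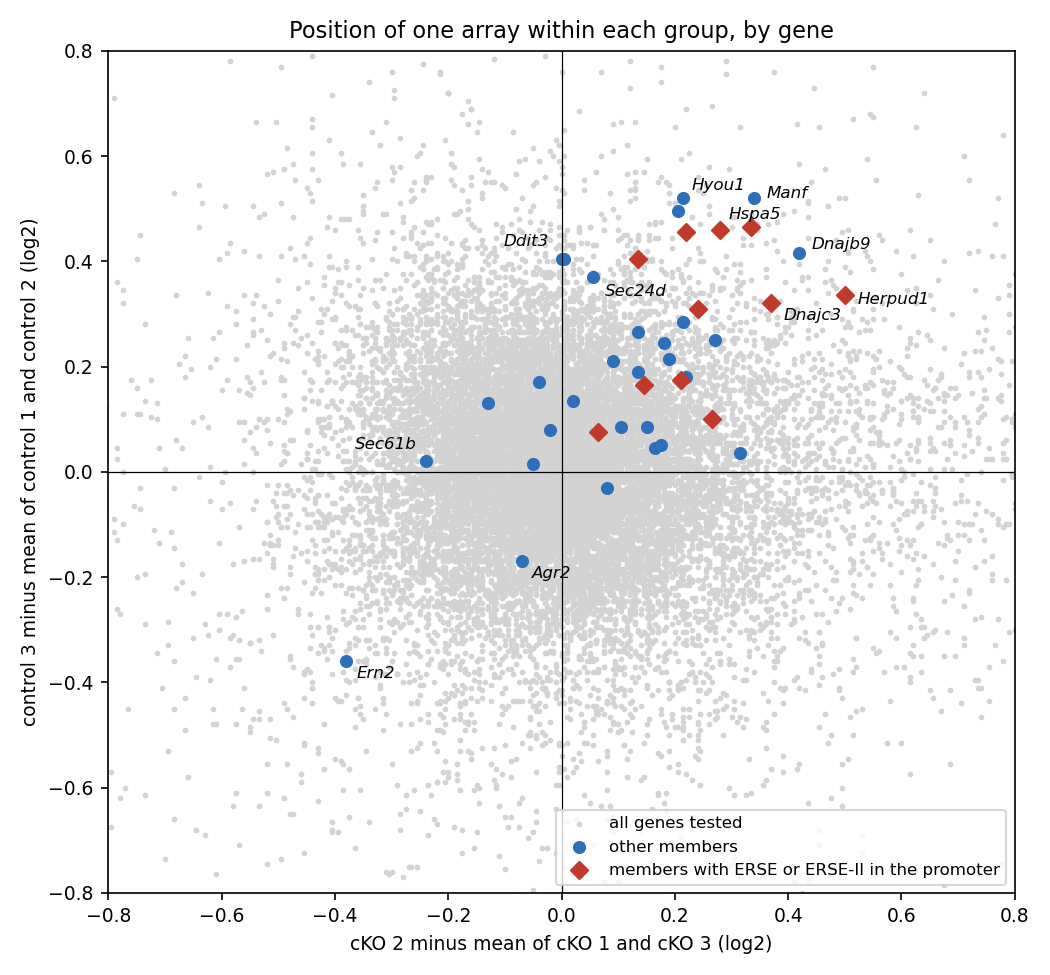
Level of each gene on cKO 2 minus the mean of cKO 1 and cKO 3 (x axis, log2), against its level on control 3 minus the mean of controls 1 and 2 (y axis, log2). Grey points are all genes tested, of which 1116 lie outside the plotted range of 0.8 in either direction, blue points are members and red diamonds members with ERSE or ERSE-II. The red diamonds all lie above 0 on both axes, and Ern2 and Agr2 below 0 on both.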

How the data were processed

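RNA of 6 Affymetrix Mouse Gene 1.0 arrays was analysed with dChip by the authors, per the series text, and the deposited log2 values, 1 per probe set and array (35512 probe sets), were used as they stand. The version of dChip and its background, normalization and model settings are not given in the labels, and the log2 scale was read from the values (0 to 14.25), so folds rest on that reading. Gene names came from the platform annotation, where 21789 probe sets had 1 gene, 1621 several and 12102 none. A RefSeq table of GRCm38.p6, matched on gene ID, served to update symbols, and 91 IDs did not match. Only probe sets with 1 gene were tested, 1 per gene. Detection calls were not used here, so low levels can hide larger changes.

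Groups came from the source names. The comparison used limma 3.58.1 in R 4.3.3 (lmFit and eBayes, two-sided) over all 19938 genes with no covariate and no filter. The members, lists and rule for named genes were chosen with earlier results of these data known. Named are all 40 genes, Gata4 and Gata6, and up to 3 genes of each other ER list in each direction with the smallest adjusted p. Any other gene is marked as named after its values were seen. The cell type lists were of epithelium, goblet cells, enteroendocrine cells (7 of 12 lower), hepatocytes, acinar cells, erythroid cells, leukocytes, endothelium, mesenchyme (0 of 12 passed, 7 higher and 1 lower at an unadjusted p under 0.05) and dissociation (0 of 11, with 1 higher).

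On simulated data for this comparison (19938 genes, 50 changed at each size), log2 changes of 0.5, 1, 2 and 4 were recovered in 26%, 84%, 88% and 96%, and 5.77% of 156 calls were false. Most changes of 0.5 were thus missed in the simulation. It gave far fewer calls than the data (1101 genes higher and 1479 lower) and drew noise for each gene alone. The recovery rates therefore need not carry over, and small changes may still be missed. The number of arrays limits the precision. Arrays with the same number were not treated as pairs in the main fit, as the labels give no pairing. Correlations of their deviations from the group means were -0.0153, -0.425 and -0.184 for numbers 1, 2 and 3, which cannot exclude a pairing. Alternatives were quantile normalization, median centring, log2(value + 32), leaving out the lowest tertile of levels, trended and robust eBayes, array weights, a replicate block, other uses of probe sets, a hepatocyte covariate and arrays left out. Fits for the exit list, the goblet markers and genes outside the 40 were added after seeing the data.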

Additional observations from a re-analysis of the deposited data

How the results depend on the processing

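Pdia5, Agr2, Ern2, Ddit3 and Sec24d passed in all 17 alternatives, and Fabp2 did too. Of 680 member values 33 had the opposite sign of the main value, in 11 genes, none of which passed in either fit. With the replicate block 2 of the 40 genes fell, as Dnajb9 (adjusted p = 0.0886) and P4hb (adjusted p = 0.0631) no longer passed, and 3 rose. The block gave 622 genes higher and 827 lower over all genes, and 7 of the other ER genes lower. The array numbers are not shown to pair the samples, and a pairing is not excluded. The block fit therefore does not settle whether the calls of Dnajb9 and P4hb hold. With control 3 and cKO 2 both left out 708 genes were higher and 878 lower over all genes, and 5 ER exit genes fell. With 1 array left out at a time, 3 to 4 of the 40 rose and 2 to 4 fell, with 629 to 959 genes higher and 844 to 1322 lower in all, 10 to 16 other ER genes higher and 7 to 17 lower, 6 to 9 exit genes lower and 7 to 8 goblet markers higher. The median change of the 40 ran from -0.055 to 0.073. Fewer arrays leave fewer degrees of freedom, and other causes were not tested. Signal over background is not given by these values, so what it limits was not tested.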
